A study of Mus musculus with 7 samples.

Results

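The late fetal window of mouse colon was examined on the arrays of embryonic days E16.5, E17.5 and E18.5, which are 3 of the 7 arrays of the series. A gene was a member when its log2 level rose at both steps, or fell at both steps, from E16.5 through E17.5 to E18.5 with a total change of 1 or more, that is 2-fold or more. Of 18194 genes measured, 315 met this rule, 303 rising and 12 falling. All arrays carried total RNA from whole colon of inbred C57BL/6 mice, untreated as far as the labels say, taken daily from E13.5 to E18.5 and in adults 8 weeks after birth. There was 1 array per stage, and the sex and number of animals behind each array were not given in the sources used here. The values of the 3 late arrays chose the members, so what these arrays show is a description without a test, and no stage has a replicate error. In the study the developmental arrays served as a normal reference for transcriptional subtypes of colorectal tumours.

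The colon forms from the hindgut as a tube of endoderm inside mesenchyme. In the last days before birth its epithelium, until then a proliferating layer with few specialised functions, differentiates into absorptive colonocytes with a brush border, mucus-secreting goblet cells and hormone-secreting enteroendocrine cells. The fetal mouse colon is known to carry, for a time, villus-like folds and digestive and absorptive proteins that the adult organ restricts to the small intestine. At birth this surface meets milk and the first bacteria.

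The tissue was checked against markers of colon and of neighbouring organs. Cdx2, the hindgut homeobox factor, stood at 8.90, 9.07 and 9.03 at E16.5, E17.5 and E18.5, where the median gene stood at 6.11, 6.12 and 6.14. Epcam, a marker of all gut epithelium, stood at 9.59, 9.66 and 9.85, and Vil1, the villin of the brush border, at 10.18, 10.75 and 11.07. Pdx1, of duodenum and pancreas, stood at 5.01, 5.08 and 4.95, and Gkn1, of stomach, at 4.89, 5.04 and 4.87. Sox2 and Barx1, also chosen as foregut markers, were not as low. Sox2 stood at 6.70, 6.18 and 6.20 and Barx1 at 6.21, 6.11 and 6.21, near or above the median gene. The muscle coat was represented as well, with Actg2, its main gamma-actin, at 12.34, 12.44 and 12.55. In tissue of mixed composition, more cells of a type and more RNA per cell cannot be told apart. Array medians lay between 5.81 and 5.83 on the embryonic arrays and at 5.86 on the adult array, and the difference between the 5' and 3' probe sets of Gapdh, which becomes more negative as RNA is shortened, was -1.44, -1.29 and -1.38 on the late arrays and -2.41 on the adult array.

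Promoter sequence is shown for a few rising members whose 250 bases upstream of the transcription start held letters known from gut transcription factor motifs. These members were picked after the matches were seen. The sequences come from RefSeq on GRCm38.p6, run 5' to 3' on the strand of the gene and end at the base before the start. Capitals mark the matches. Alpi, the intestinal alkaline phosphatase, lies at chr1:87101607-87101856 on the minus strand, and its match to the HNF4 letters CAAAGTCC begins 19 bases before the start. Slc51a, a subunit of the basolateral bile acid exporter, lies at chr16:32487880-32488129 (minus strand), and Cideb, a lipid droplet protein needed for loading lipoproteins, at chr14:55758425-55758674 (minus strand). Both hold the same letters on the opposite strand. Mptx1, a mucosal pentraxin, lies at chr1:174330268-174330517 (plus strand) with 1 GATA match and 2 adjoining matches to the HNF1 letters, and Muc2, the main gel-forming mucin, at chr7:141690090-141690339 (plus strand) with 2 GATA matches.
Alpi: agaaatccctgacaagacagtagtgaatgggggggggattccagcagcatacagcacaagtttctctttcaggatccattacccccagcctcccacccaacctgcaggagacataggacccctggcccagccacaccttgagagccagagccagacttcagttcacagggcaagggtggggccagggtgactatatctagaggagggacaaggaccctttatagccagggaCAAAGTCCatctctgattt
Slc51a: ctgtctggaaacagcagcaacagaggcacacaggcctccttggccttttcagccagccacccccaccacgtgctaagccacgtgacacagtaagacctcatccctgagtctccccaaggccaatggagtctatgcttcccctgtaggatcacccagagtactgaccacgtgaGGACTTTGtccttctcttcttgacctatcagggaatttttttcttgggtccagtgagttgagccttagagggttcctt
Cideb: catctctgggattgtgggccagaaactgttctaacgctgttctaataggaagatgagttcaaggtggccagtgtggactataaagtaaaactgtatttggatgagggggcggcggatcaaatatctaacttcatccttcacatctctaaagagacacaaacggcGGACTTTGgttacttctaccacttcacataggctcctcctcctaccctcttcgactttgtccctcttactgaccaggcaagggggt
Mptx1: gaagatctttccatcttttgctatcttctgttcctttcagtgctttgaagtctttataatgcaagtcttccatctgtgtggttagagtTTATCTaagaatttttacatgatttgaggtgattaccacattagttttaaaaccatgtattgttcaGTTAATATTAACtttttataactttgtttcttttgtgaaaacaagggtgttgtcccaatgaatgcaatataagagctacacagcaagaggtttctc
Muc2: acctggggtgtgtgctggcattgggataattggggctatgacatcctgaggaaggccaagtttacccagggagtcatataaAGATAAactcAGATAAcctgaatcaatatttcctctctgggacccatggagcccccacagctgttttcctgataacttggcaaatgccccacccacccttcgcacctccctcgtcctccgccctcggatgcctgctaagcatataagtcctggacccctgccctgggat

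Upstream windows were listed for 242 of the 303 rising members and for 14453 of all genes. Searched on both strands, the HNF4 letters CAAAGTCC were present in 13 of the 242 (5.37%) and in 1.34% of all windows. The GATA letters AGATAA were present in 29 (12% against 7.47%), the HNF1 letters GTTAAT in 21 (8.68% against 4.69%) and the CDX letters TTTATG in 24 (9.92% against 7.45%). Of the 9 falling members with a window, 2 held the CDX letters and none the others. No 2 of these motifs have the same letters, and a match describes sequence only.

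Changes of 2-fold or more in the window were mostly increases. Rising members made up 1.67% of all genes and falling members 0.066%. Only the small changes in the middle of all genes were about even, with quartiles of -0.13 and 0.13. With the threshold lowered to 0.8, 452 genes rose and 28 fell. The median rising member gained 1.47 on the log2 scale, from 6.83 at E16.5 through 7.87 at E17.5 to 8.58 at E18.5, while the median change over all genes was 0.0. The first step was the larger in 209 of the 303 (69%, against 46.4% of all genes), with a median of 0.87 against 0.65 for the second step. A total of 2 or more was reached by 67 members and a total of 3 or more by 18, and 29 gained at least 1 at each step. At the other end, 75 rising members changed by only 1 to 1.2. Just inside the threshold were Mogat2 at 1.0015, Mien1 at 1.01 and Cndp2 at 1.01, and just outside it were Pigr at 0.9991, Cutal at 0.99 and Aqp4 at 0.99. At E13.5, E14.5 and E15.5 alike the level of 138 rising members (45.5%, against 46.8% of all genes) lay below that of the median gene, and at E18.5 that of 13 (4.29%).

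**Figure D1:**
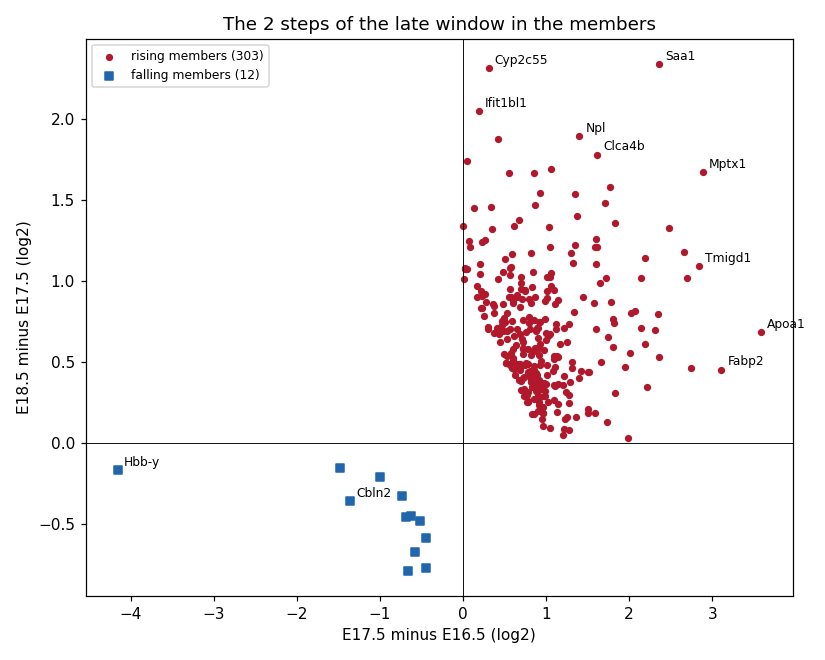
Each point is a member, with its change from E16.5 to E17.5 on the horizontal axis and from E17.5 to E18.5 on the vertical axis, both as log2 differences between single arrays. Rising members (303) lie in the upper right and falling members (12) in the lower left, since the rule asks for the same sign at both steps. Apoa1 and Fabp2 gained mostly in the first step and Cyp2c55 and Ifit1bl1 mostly in the second.

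The largest gains belonged to secreted and surface proteins of the mucosa and of lipid transport. Saa1, a serum amyloid A protein of mucosa and acute phase, stood at 6.10, 8.46 and 10.80 at E16.5, E17.5 and E18.5, which is 26.0-fold over the window. Mptx1 stood at 6.39, 9.27 and 10.94, which is 23.5-fold. Tmigd1, an epithelial adhesion protein, stood at 5.13, 7.98 and 9.07. Within the window the rule itself makes each of these highest at E18.5. All were higher again in the adult, at 12.57 for Saa1, 11.62 for Mptx1 and 11.60 for Tmigd1. Among the 31 measured genes of the colonocyte maturation list, 16 rose and none fell, with a list median of 1.05. This list and the lists below were drawn up from known roles, but after earlier results of these data had been seen. Their shares are given beside the 1.67% of all genes that rose as a description only. Because the lists were not chosen independently of the arrays, the comparison cannot show that a role is over-represented.

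Genes of the mucus layer were among the strong risers. Muc2 stood at 5.99, 6.07 and 6.25 at E13.5 to E15.5, at 7.66, 10.36 and 11.38 at E16.5 to E18.5 and at 12.61 in the adult. Zg16, a lectin of the mucus layer that binds bacterial walls, stood at 6.53, 8.14 and 9.34 in the late window. Fcgbp, a Muc2-associated mucus protein, stood at 9.48, 11.09 and 11.79 after 5.95 at E15.5, so its greatest step came before the window. Muc3, a membrane mucin of the brush border, stood at 6.83, 8.42 and 9.63. In all, 8 of 26 goblet cell and mucus genes rose and none fell, with a list median of 0.65.

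The brush border list held 15 rising genes of 35 and none falling, with a median of 0.82. Alpi stood at 6.04, 7.81 and 9.39 in the late window after 5.35, 5.26 and 5.17 at E13.5 to E15.5. Mep1b, the beta subunit of the metalloprotease meprin, stood at 6.13, 8.32 and 9.46. Slc15a1, the proton-coupled peptide carrier, stood at 8.11, 10.13 and 10.68, and Slc7a9, a light chain of the cystine and dibasic amino acid carrier, at 5.83, 7.85 and 8.66. These 4 genes differed in what came after birth. Mep1b stood at 10.79 and Slc15a1 at 11.26 in the adult, above E18.5, while Alpi stood at 8.54 and Slc7a9 at 5.87.

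Genes of fat absorption and lipoprotein assembly formed a further set, 9 of 29 rising and none falling with a median of 0.58. Apoa1, the core apolipoprotein of high density lipoprotein, stood at 6.91, 6.90 and 6.71 in the early arrays, at 6.99, 10.57 and 11.26 in the late arrays and at 6.61 in the adult. Apoc3, an apolipoprotein that restrains triglyceride clearance, stood at 5.43, 7.92 and 9.24 and then at 5.52 in the adult. Thus both were far above every other stage at E17.5 and E18.5. Fabp2, the intestinal fatty acid binding protein, stood at 7.24, 10.35 and 10.80 and was higher still in the adult at 12.49. The 4 probe sets of Apoa1 all met the rule on their own.

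Carriers and pumps for ions, bile acids and metals were a further kind of rising member. Atp12a, the colonic proton and potassium pump, stood at 6.78, 9.45 and 10.62 in the late window, and Slc9a2, an apical sodium and proton exchanger, at 5.37, 7.21 and 8.56. Atp1b1, the beta subunit of the sodium pump, stood at 9.12, 9.93 and 10.64, although only 2 of its 5 probe sets met the rule. Ion and water transport genes rose in 4 of 24 cases, with a list median of 0.18. Among 12 bile acid genes, a group assembled after values were seen, 5 rose. Fabp6, the ileal bile acid binding protein, stood at 6.58, 9.33 and 9.79, and Slc51b, the partner subunit of Slc51a, at 6.95, 9.13 and 9.74. Nr1h4, the bile acid receptor FXR, stood at 8.33, 9.30 and 9.52. In a group of 21 metal ion transport genes, likewise assembled afterwards, 7 rose, among them Slc39a4, the intestinal zinc importer, at 6.36, 7.47 and 8.33, and Slc40a1, the iron exporter ferroportin, at 8.26, 9.26 and 9.90.

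**Figure D2:**
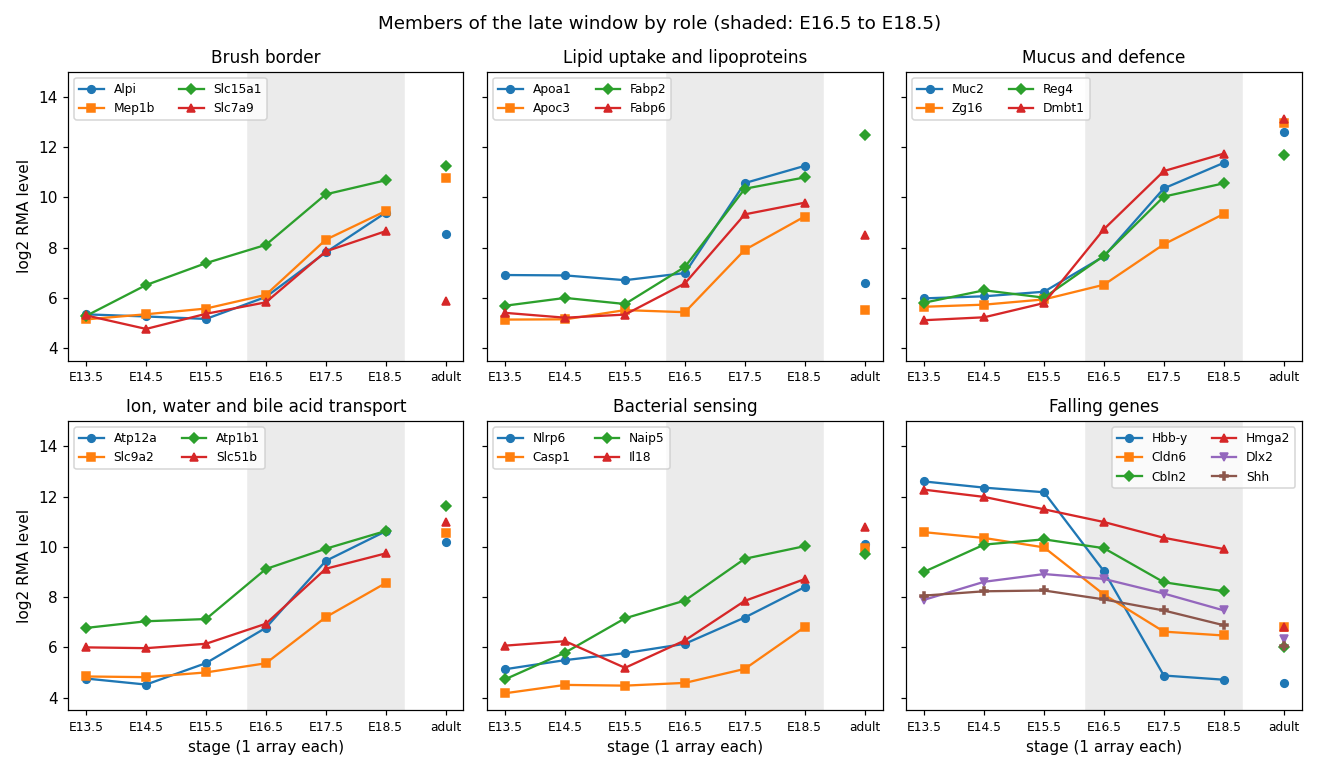
Lines join the log2 RMA levels of single embryonic arrays and a separate marker gives the adult array, with the late window shaded. Panels group members by role, and the sensing panel and Slc51b were chosen after values were seen. Apoa1 and Apoc3 return in the adult to 6.61 and 5.52, whereas Muc2 and Zg16 stand at 12.61 and 12.95, and Hbb-y drops from 9.04 to 4.72 inside the window.

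Xenobiotic and steroid metabolism contributed 10 of 38 measured genes, with none falling and a median of 0.27. Cyp2d26, a cytochrome P450, stood at 5.73, 7.87 and 8.89, and Sult1b1, a sulfotransferase, at 7.19, 8.84 and 9.83. Cyp2c55, a cytochrome P450 abundant in colon, behaved differently in time, standing at 4.37 and 4.68 at E16.5 and E17.5 and at 6.99 at E18.5, with 12.16 in the adult. Nqo1, a quinone reductase, stood at 7.85, 9.07 and 9.78.

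A minority of defence genes rose in the window. Of 34 mucosal defence genes 7 rose and none fell, while the list median was 0.13, so most of the list moved little. Dmbt1, a scavenger receptor protein that aggregates bacteria, stood at 8.74, 11.05 and 11.75 after 5.80 at E15.5, so its greatest step came before the window. Reg4, a secreted C-type lectin, stood at 7.68, 10.03 and 10.56. Reg3b, a related bactericidal lectin, stood at 8.46, 10.20 and 10.33, after 4.79, 4.54 and 4.70 in the early arrays, so its greatest step, between E15.5 and E16.5, preceded the window. Il18, an epithelial cytokine, stood at 6.28, 7.86 and 8.72. Inflammasome and bacterial sensing genes, grouped after values were seen, rose in 8 of 22 cases. These were Il18, Nlrp6, Casp1, Casp4, Tlr1, Naip2, Naip5 and Naip6, and Nlrp6, an inflammasome sensor of gut epithelium, stood at 6.15, 7.19 and 8.40. Casp1, which cleaves the precursor of Il18, stood at 4.59, 5.15 and 6.81, and Naip5, a sensor of bacterial flagellin, at 7.87, 9.53 and 10.03. Naip5 and Naip6 are close paralogs whose probe sets may share signal. Interferon-induced genes, grouped in the same way, rose in 9 of 32 cases. Among them Ifit1bl1 stood at 4.79, 4.99 and 7.04 and Ifit1 at 4.63, 4.68 and 6.42, so that both gained mainly at the last step. The broader list of MHC and interferon response genes had 1 riser of 33, Ifit1, and a median of 0.37.

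Of the immune cell lists, only that of macrophage and myeloid cells held members. The lymphocyte list (27 genes) and the mast cell list (15 genes) had none. With 1.67% of all genes rising, this does not set lists of such size apart. The mean log2 level of the lymphocyte list was 5.19, 5.19 and 5.17. Of 32 macrophage and myeloid genes 3 rose, with list means of 6.20, 6.30 and 6.49 at E16.5, E17.5 and E18.5. Ccl6, a chemokine, stood at 7.98, 9.40 and 9.85, Ctss, the protease cathepsin S, at 9.03, 9.78 and 10.72, and Mrc1, the macrophage mannose receptor, at 7.53, 8.30 and 8.56. Whether these cells contributed to the sensing and interferon-induced members was not tested.

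Hormone and neuropeptide genes gave 4 rising members of 28 in the enteroendocrine list. Nts, neurotensin, stood at 4.88, 6.48 and 7.74, and Pyy, peptide YY of L cells, at 9.26, 11.25 and 11.28. Sct, secretin, stood at 6.79, 7.94 and 8.47, and Sst, somatostatin, at 5.65, 6.50 and 6.98. Gcg and Insl5, named here after their values were seen, gained 2.07 and 2.24 but dipped by less than 0.1 from E17.5 to E18.5 and so are not members. Of 39 enteric neuron genes 3 rose. Tac1, the substance P precursor, stood at 5.62, 6.79 and 7.40, Vip, a relaxant peptide transmitter, at 6.83, 7.97 and 8.51, and Calcb, a calcitonin-related peptide, at 5.56, 6.50 and 6.65. The 2 probe sets of Tac1 disagree, with changes of 0.0048 and 3.57, and its levels lie midway between them. The general neuronal marker Elavl4 stood at 7.78, 7.62 and 7.62 over the same arrays. No gene of the glia list (17 genes) met the rule, which at 1.67% of all genes rising does not set so short a list apart.

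Sugar-handling and lysosomal genes were a less familiar part of the rising set. Npl, the lyase that splits free sialic acid, stood at 6.29, 7.69 and 9.59 in the late window and at 6.42 in the adult, and its early values lay between 6.31 and 6.40. Of 16 sialic acid and aminosugar genes, grouped after values were seen, 6 rose, namely Npl, Renbp, Slc17a5, Neu3, Gnpda1 and Neu1. Renbp, an epimerase of N-acetylglucosamine, stood at 8.21, 9.20 and 10.08, and Slc17a5, the lysosomal sialic acid exporter, at 6.86, 8.26 and 8.66. Adult levels of all 6 were under those of E18.5, in 4 of them by 1 or more. Lysosomal genes, also grouped afterwards, rose in 9 of 34 cases. No gene of the added groups fell, where only 0.066% of all genes did.

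Connective tissue and muscle lists held a few members each, where 1.67% of all genes rose and 0.066% fell. Of 36 collagen and interstitial matrix genes only Mfap5, a microfibril glycoprotein, rose, at 5.62, 6.99 and 8.39. Of 20 small leucine-rich proteoglycans and partners 3 rose, Abi3bp, Aspn and Dpt, and Kera, keratocan, fell from 5.84 through 5.16 to 4.71. Dpt, dermatopontin, stood at 9.36, 10.46 and 10.82 after 5.41 at E15.5. Smooth muscle gave 2 of 32, Cryab and Smtn, and the list median was 0.25. The stem cell and crypt list (20 genes), the tuft cell list (14 genes) and the mitosis list (39 genes) had no member, and the mitosis median was -0.32. Lists of DNA replication (37 genes) and RNA processing (24 genes) also had none, with medians of -0.28 and -0.19. Where 1.67% of all genes rose, having no member does not by itself set lists of such size apart. A change above 0 was seen in 2 mitosis genes, 0 DNA replication genes and 1 RNA processing gene, so these lists fell by less than the threshold.

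**Figure D3:**
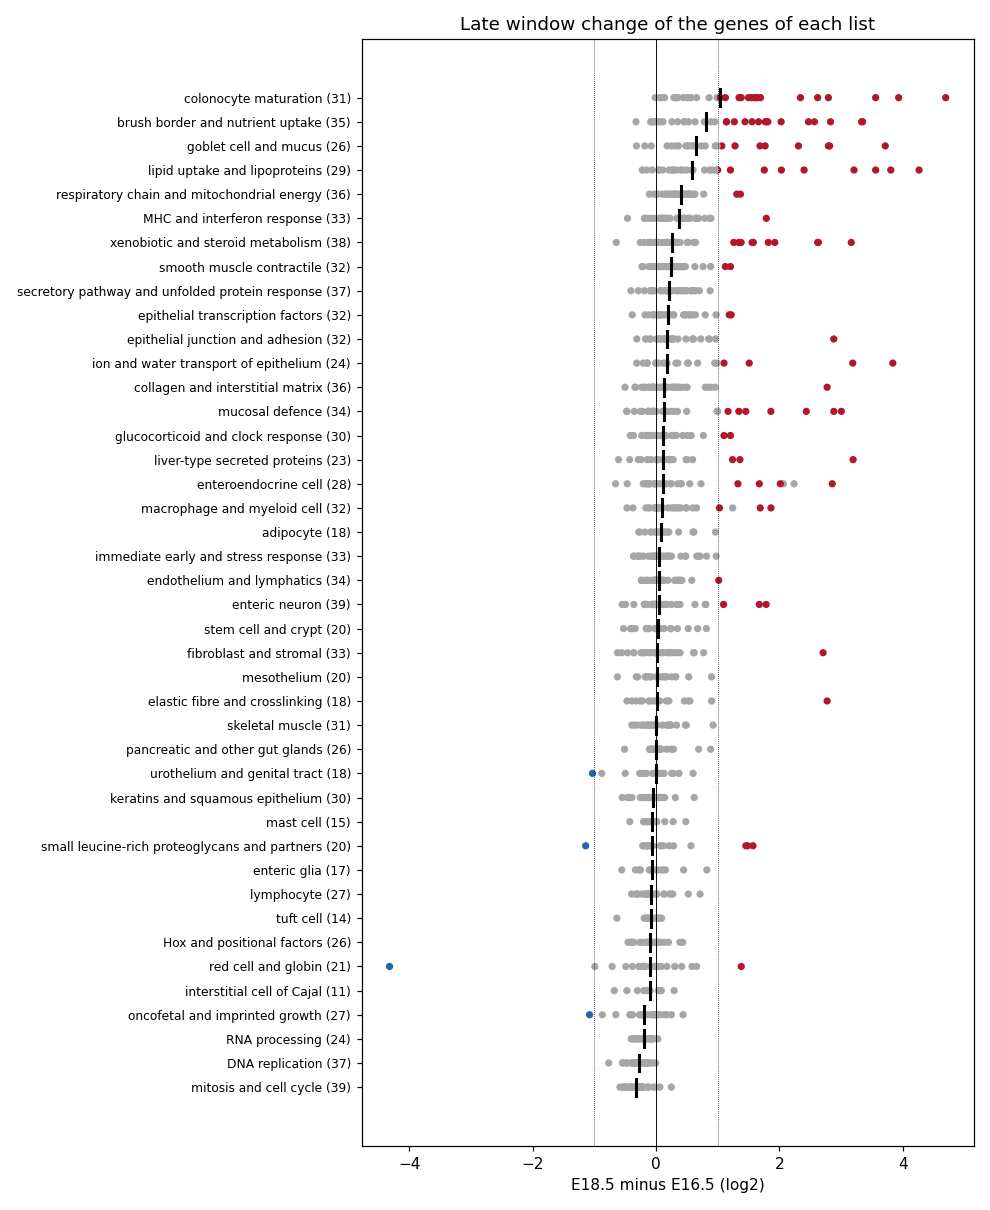
Each dot is a gene, placed by its log2 change from E16.5 to E18.5 within its list (number measured in parentheses), with rising members red, falling members blue and other genes grey. Black bars are list medians and dotted lines mark the threshold of 1 in either direction. Colonocyte maturation has the highest median, 1.05, and mitosis the lowest, -0.32.

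Of the 32 epithelial transcription factors on the list 2 rose and none fell. Cdx1, the caudal homeobox factor of posterior gut, stood at 5.60, 5.77 and 6.04 in the early arrays, at 7.09, 7.87 and 8.31 in the late arrays and at 8.57 in the adult. Nr1h4, already described, was the other. Among other epithelial markers Cdx2 changed by 0.13 in the window, Epcam by 0.26, Lgals4 by 0.35, Cdh17 by 0.60 and Vil1 by 0.89. The junction list, a measure of epithelium in general, had 1 riser of 32, where 1.67% of all genes rose. Its median was 0.18, and 27 of its genes had a change above 0. The part that a growing epithelial share of the tissue has in the rising members was not tested.

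Some rising members are best known from fetal liver. Afp, alpha-fetoprotein, stood at 6.31, 8.02 and 9.51, Serpina1b, an alpha-1-antitrypsin, at 8.79, 9.57 and 10.15, and Ttr, transthyretin, at 9.64, 10.56 and 10.88. Of the 5 probe sets of Afp 3 passed, and the mean over all 5 gained 1.95 in place of 3.20. Alb, albumin, the most abundant liver transcript, stood at 6.77, 6.72 and 6.69 on the same arrays. Those 3 were the only risers among 23 liver-type genes, whose mean level was 5.72, 5.86 and 6.01. Lists for adipocytes (18 genes), pancreas and other glands (26 genes), skeletal muscle (31 genes) and keratins of squamous epithelium (30 genes) had no member. Where 1.67% of all genes rose, this does not set lists of such size apart. Without the genes of these lists 300 risers remain.

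Only 12 genes fell under the rule, and no list held more than 1 of them. Hbb-y, an embryonic beta-like globin, had the largest change, standing at 12.61, 12.36 and 12.18 in the early arrays, at 9.04, 4.88 and 4.72 in the late arrays and at 4.58 in the adult. Its loss between E16.5 and E17.5 alone was -4.15. Its alpha-like counterpart Hba-x lay just outside the rule at -0.99 and had moved earlier, from 9.67 at E13.5 through 7.86 to 6.14 at E15.5. Cldn6, a claudin of embryonic epithelium, stood at 8.11, 6.63 and 6.48 after 10.59, 10.36 and 9.98.

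Regulators of development were among the remaining falling members. Shh, the hedgehog ligand of gut endoderm, stood at 7.91, 7.47 and 6.89, and Hmga2, an architectural chromatin protein of embryonic tissue, at 10.99, 10.37 and 9.92. Only 1 of the 2 probe sets of Shh passed, with changes of -0.12 and -1.94. Dlx2, a homeobox factor, stood at 8.73, 8.15 and 7.48, and Cbln2, a synapse organiser, at 9.95, 8.60 and 8.24. Cldn11, a claudin, stood at 5.39, 4.72 and 3.94, and Cers3, a ceramide synthase, at 5.97, 4.97 and 4.76. These last levels are at the dim end of the array, below the median gene. The others were Wfdc15b with a change of -1.22, Kera with -1.14, Col22a1 with -1.06 and 1 gene model. Just inside were Shh at -1.03, Col22a1 and Hmga2 at -1.07, and just outside were Dhtkd1 at -0.99, Hba-x and Ppl at -0.96.

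Whether the members were already changing was asked of E13.5, E14.5 and E15.5, arrays the rule did not use. The same rule on these 3 arrays was met upward by 30 of the 303 rising members (9.9%), where it was met by 0.813% of all genes. It was met downward by 4 (1.32%, against 0.83% of all genes). For 206 members (68%) the early change was under 0.5 in size, as it was for 87% of all genes, and the median early change of the rising members was 0.22. An early gain of any size was seen in 211 (69.6%, against 47.1% of all genes). Gains at each of the 5 steps from E13.5 to E18.5, which include the steps that chose the members, were seen in 114 (37.6%, against 2.94% of all genes).

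A slope per day fitted with limma to the early arrays reached a Benjamini-Hochberg adjusted p under 0.05 for no member and for no gene. At an unadjusted p under 0.05 the slope was positive in 79 of the 303 rising members (26.1%, against 5.86% of all genes) and negative in 13 (4.29%, against 9.84%). The fit has 1 residual degree of freedom per gene, and limma adds 2.03 prior degrees of freedom from a variance shared over all genes. The error of a gene is therefore largely that shared value. Its only source is the scatter of 3 single arrays around a line.

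Members that were already rising included carriers, enzymes and surface proteins of the colonocyte. Tmem45b, a transmembrane protein, had the greatest early gain, 3.02, from 6.04 through 8.38 to 9.06, followed by 9.90, 10.89 and 11.21 in the late arrays. Sult1d1, a sulfotransferase, gained 2.64 early and 1.26 late. Slc5a8, a sodium-coupled carrier of short-chain fatty acids and other monocarboxylates, gained 2.52 early and 1.53 late. Naip5 gained 2.43 early and 2.16 late, and Ckmt1, a mitochondrial creatine kinase, 2.33 and 1.31. Lypd8, an epithelial surface protein that keeps flagellated bacteria off the mucosa, stood at 5.88, 7.27 and 8.11 and then at 11.24, 12.46 and 12.87, the highest E18.5 level among the rising members.

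Other strong risers had stayed level before the window. Mptx1 stood at 5.34, 5.12 and 5.33 at E13.5 to E15.5, and Cideb at 5.13, 4.88 and 5.13. Ifit1bl1 lay between 4.48 and 4.52, and Tac1 between 4.59 and 4.75. Smlr1, a small leucine-rich protein, stood between 4.96 and 5.01 early and gained 1.90 late.

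A few members reversed. Saa1 stood at 7.96 at E13.5 and 6.02 at E15.5 before its rise. Aldh1a7, an aldehyde dehydrogenase, stood at 9.41, 8.49 and 7.46 and then at 7.32, 8.34 and 8.76. Hpgd, which degrades prostaglandins, stood at 9.09, 8.05 and 7.31 and then at 7.67, 8.30 and 8.72, and Hsd11b2, which inactivates glucocorticoid, at 7.31, 6.93 and 6.23 and then at 6.94, 7.53 and 8.29. Prap1, an acidic protein of gut epithelium, stood at 8.92, 7.14 and 7.15 and then at 7.92, 9.73 and 10.47. Among the 12 falling members Cbln2 and Dlx2 met the rule upward in the early window, as 0.813% of all genes did. None met it downward, as 0.83% of all genes did, which does not set so few genes apart. The early change was positive in 9 of the 12 (75%, against 47.1% of all genes). Falls at every step from E13.5 to E18.5, which include the steps that chose the members, were seen in 3 (25%, against 2.41% of all genes). These were Hmga2, Cldn6 and Hbb-y, with early changes of -0.78, -0.61 and -0.43.

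**Figure D4:**
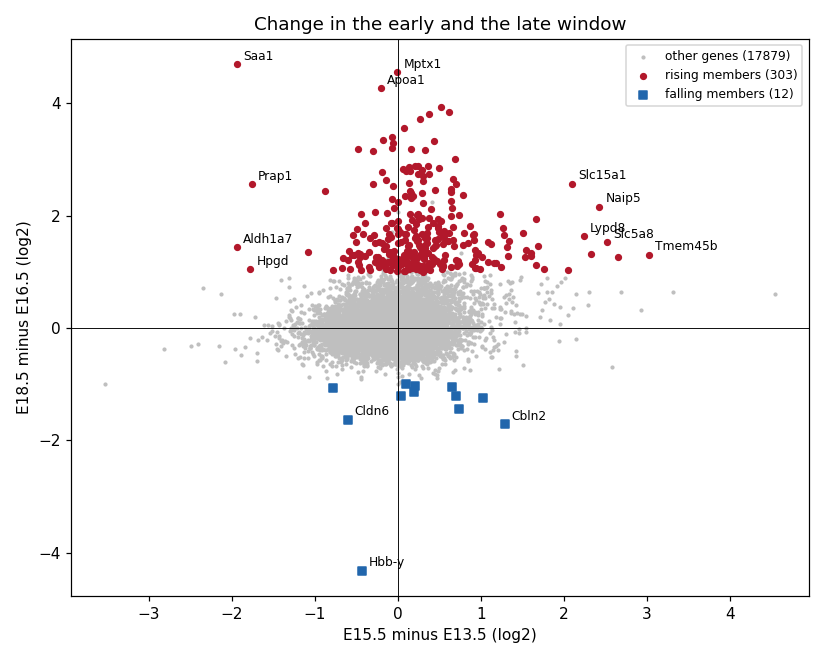
Each point is a gene, with the log2 difference E15.5 minus E13.5 on the horizontal axis and E18.5 minus E16.5 on the vertical axis. Red points are the 303 rising members, blue squares the 12 falling members and grey points all other genes. Most rising members stand near 0 on the horizontal axis, with Tmem45b, Naip5 and Slc5a8 to the right and Saa1, Aldh1a7 and Hpgd to the left.

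The step from E15.5 to E16.5 lies between the windows and shares the E16.5 array with the rule, which favours members that are low at E16.5. Even so, 77 of the 303 rising members (25.4%) stood on the E16.5 array at least 1 above their E15.5 level, against 1.01% of all genes, and the median step was 0.53.

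The adult array was compared with the level fitted at E15.5, which leaves the late arrays out. With limma, 241 of the 303 rising members (79.5%) were higher in the adult at an adjusted p under 0.05 and by at least 1, where 9.01% of all genes were. Only 5 (1.65%) were lower, against 5.56% of all genes, and these were Afp, Serpina1b, Folr1 and, named after their values were seen, Mreg and Prss35. Muc2 was 6.38 ± 0.10 (SE, 1 adult array) above its fitted E15.5 level, with an adjusted p of 0.00801 in limma. Apoa1 differed by -0.13 ± 0.11 (SE), with an adjusted p of 0.476, beside its gain of 4.27 in the window. Of the 12 falling members 9 were lower in the adult and none higher. Hmga2 was -4.73 ± 0.11 (SE) from its fitted E15.5 level, with an adjusted p of 0.00801. Each SE rests on the error moderated over all genes. The lone adult array is assumed to vary as the early arrays do around their line. Its Gapdh 5' to 3' difference stood apart from the others as given above, so the errors do not cover differences between adult animals.

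Set against E18.5, an array the rule used, the adult levels fell into 3 sorts. In 126 rising members (41.6%, against 4.33% of all genes) the adult was at least 1 higher, in 125 (41.3%, against 91.8%) it was within 1, and in 52 (17.2%, against 3.84%) it was at least 1 lower. Of the last, 40 were within 1 of their E16.5 level, which is 13.2% of the rising members, against 0.616% of all genes. The rule places E16.5 at least 1 below E18.5 in every rising member, so this contrast is in part built in. The first sort was led by Ang4, Cyp2c55, Abcb1a, Cyp2d34, Prss30 and Zg16 among named genes. Cyp2c55 was 5.17 above E18.5, and Abcb1a, a drug efflux pump, 4.18 above it. Ang4, a bactericidal ribonuclease of Paneth and goblet cells, stood at 5.77, 5.77 and 7.11 in the window and at 11.02 in the adult, and its 2 probe sets gained 0.30 and 2.39.

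The members that were lower in the adult were led by lipid handling and fetal secreted proteins. Serpina1b, whose close paralogs may share its signal, was at -5.62 relative to E18.5, Apoa1 at -4.65, Afp at -4.42, Ces1c, a carboxylesterase, at -4.42, Folr1, a folate receptor, at -3.96 and Apoc3 at -3.73. Ces1c stood at 8.01, 9.74 and 10.75 in the window and at 6.34 in the adult, and Npl and Slc7a9, described above, were of the same kind. Clca4b, of the chloride channel accessory family, stood at 4.29, 5.91 and 7.69 in the window and at 5.28 in the adult. Among falling members, 4 of 12 were at least 1 lower again in the adult (33.3%, against 3.84% of all genes). None was at least 1 higher, against 4.33% of all genes.

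**Figure D5:**
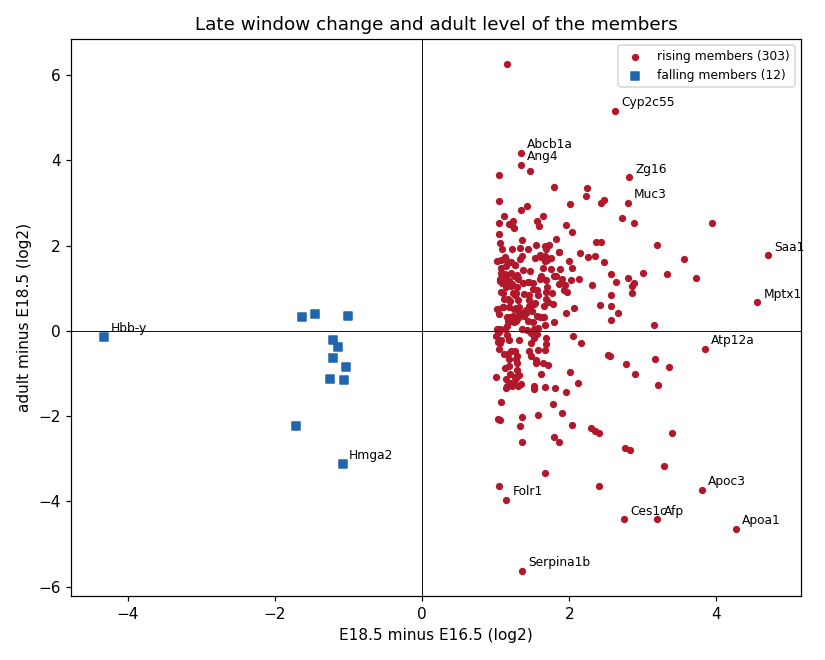
Each point is a member, with its log2 change from E16.5 to E18.5 on the horizontal axis and adult minus E18.5 on the vertical axis, single arrays throughout. Rising members with points above 0 went on to higher adult levels (Cyp2c55, Zg16) and those far below 0 were lower in the adult (Serpina1b, Apoa1, Afp). Both axes contain the E18.5 array, so their relation is not a test.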

How the data were processed

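Total RNA from mouse colon was hybridised to Affymetrix mouse whole-genome arrays, 1 per stage. The authors deposited log2 intensity values summarised by RMA, which corrects background, gives all arrays one distribution and summarises probes. Per the submitters' processing notes this was done in R 2.9.2 with affy 1.22.1. RMA would hide a shift shared by most genes, and probe sets of close paralogs can share signal.

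Of 45101 probe sets, 34958 were assigned to 1 gene by the platform annotation and kept, whereas 932 assigned to several and 9211 assigned to none were not. Names were updated through gene identifiers of GRCm38.p6 (18033 of 18195 matched), and the median over probe sets gave 18194 genes, 9012 of them with several probe sets. No filter on dim genes was applied. Members had strictly monotone levels from E16.5 through E17.5 to E18.5, with a total change of at least 1 on the log2 scale.

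limma 3.58.1 in R 4.3.3 (lmFit, eBayes) was fitted to E13.5, E14.5, E15.5 and the adult, with a slope per day and the adult difference from the level fitted at E15.5, adjusted by Benjamini-Hochberg over all genes. The model has 1 residual and 2.03 prior degrees of freedom and was tested on simulated data. Replicate and batch error could not be estimated, and the number of arrays limits precision.

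The 43 gene lists (1207 genes, 1111 measured) hold 93 rising and 4 falling members. The members, lists and tests were chosen with earlier results of these data known, and the groups for bile acids, sialic acid, lysosome, sensing, interferon and metals after the values of these arrays were seen. Genes named were the 12 with the largest change in each direction, up to 4 per list, the 6 with the largest early change in the same direction, in the opposite direction and the 6 with the smallest early change, those nearest the threshold, the 6 highest and 6 lowest in the adult relative to E18.5, and the markers. Names of clones and gene models were left out.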

Additional observations from a re-analysis of the deposited data

Results flagged for a closer look

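Several members moved by 1 or more in opposite directions in the early and the late window, and the difference between the windows was not tested. From E13.5 to E15.5 Saa1 changed by -1.94, Aldh1a7 by -1.95, Hpgd by -1.78 and Hsd11b2 by -1.08 before rising by 4.70, 1.44, 1.05 and 1.35 from E16.5 to E18.5. In the other direction Cbln2 gained 1.29 and Dlx2 gained 1.02 before falling by 1.71 and 1.25. Each value compares single arrays.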

How the results depend on the processing

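The share of members that rose was between 95.2% and 96.7% with every choice of probe set, with each array centred on its median and without the dimmest 25% of genes. Taking the probe set with the highest mean gave 376 rising members, of which 274 were also members by the median, and 19 falling. Averaging the probe sets gave 286 and 10, leaving out dim genes 297 and 10, and centring 297 and 14. A total of at least 1.5 left 146 rising and 3 falling members, and a total of at least 0.8 gave 452 and 28. Asking that all probe sets of a gene pass, a choice made after seeing the data, left 248 and 9. Genes with a single probe set meet that request automatically. Only 91 of the 303 rising members have several probe sets, and in 55 of these at least 1 does not pass. In 1, Mettl7a1, probe sets moved by over 0.5 in opposite directions. The count already rising early, 30, was 42 with the highest probe set, 13 from E13.5 to E14.5 alone and 6 from E14.5 to E15.5 alone. The adult count, 241, lay between 231 and 295. No named gene changed direction, and those that left the members were Clca4b, Cldn11, Ifit1bl2 and Kera without dim genes (they are among those left out), Ang4, Cndp2, Lyve1, Mien1 and Mogat2 with centring, Atp1b1, Cndp2, Hpgd and Ttr with the highest probe set, and Atp1b1, Col22a1 and Hmga2 with the mean. With the highest probe set the change rose by over 1.5 times for Ang4 (2.39), Cryab (2.02), Ifit1bl2 (3.03), Lyve1 (1.76), Shh (-1.94), Tac1 (3.57) and Zg16 (5.11) and dropped to 0.35 for Atp1b1, and with the mean it was 1.95 for Afp and 0.59 for Atp1b1. No paired analysis was possible because each stage has 1 array.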

Other observations

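Probe sets outside the gene table also met the late window rule. Of the 9160 probe sets that name no gene once control probe sets are set aside, 29 rose (0.317%) and 1 fell (0.0109%). Of 932 naming several genes, 21 rose (2.25%) and 3 fell (0.322%), while of the 34958 that name 1 gene 531 rose (1.52%) and 30 fell (0.0858%). Of the 303 rising members, 210 are in none of the gene lists.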
